A study of Mus musculus with 6 samples.

Results

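The lens of Tdrd7 heterozygous mice at postnatal day 30 was described from 3 Illumina mouse BeadArrays, chosen as the arrays whose genotype label is heterozygous, out of 6 arrays in the study. The Tdrd7 protein has Tudor domains and sits in RNA granules of the cytoplasm, and mice and people without it are known to develop cataract. The study's design sets lenses of Tdrd7 null mice against these heterozygous lenses, which serve as its control, and the null arrays were not used here. The 3 samples were total RNA of lens from mice of a C57BL/6J and C3A.Blia mix, aged P30, and each heterozygous lens carries 1 mutant Tdrd7 allele. No wild-type lens was analysed here. The labels do not record whether a lens had a cataract, nor whether each sample came from its own animal, so how much of the spread between arrays is technical was not separated. A probe was called detected where the deposited detection p-value was under 0.05 on all 3 arrays. By this rule 11120 of 45281 probes were detected, which is 24.6% (percent of probes called). Counted by genes, each represented by its brightest named probe, 6951 of 19057 genes were detected (36.5%).

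The lens is built from a layer of epithelial cells at its front and a mass of elongated fibre cells. Epithelial cells divide, move to the equator and differentiate there into fibres, which fill with crystallins, the soluble proteins that give the lens its refractive power, and then break down their nuclei and other organelles. The whole tissue is wrapped in a capsule of basement membrane and has no blood vessels in the adult. Most RNA synthesis is known to take place in the epithelium and in the younger fibres near the surface.

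The values are log2 intensities after background correction and quantile normalization, unless raw intensities are named. A probe's brightness depends on how well that probe binds as well as on how much transcript there is, so a rank by brightness is not a rank by number of transcripts. Of the 4331 detected genes with several named probes, 59.7% had a gap of more than 1 on the log2 scale between their brightest and next brightest probe, with a median gap of 1.26. Crybb3, for example, had probes at 15.17 and 8.50, and Rpl37 had 1 probe at 14.50 and 2 that were not detected. Of the 100 brightest probes, 36 had no single gene name and were not ranked as genes.

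The 3 arrays were not equally alike. Arrays 1, 2 and 3, numbered by their order in the deposited table, had 15640, 12655 and 14203 probes detected. Across detected probes the log2 intensities of arrays 1 and 3 correlated at 0.987, those of arrays 1 and 2 at 0.945 and those of arrays 2 and 3 at 0.949 (Pearson's r across probes, which are not independent replicates). Array 2 therefore stood apart, and genes whose spread rests on it are mostly given by array. Over the 6951 detected genes, array 1 was the lowest array for 32.6% and array 2 for 40.9%, and array 2 was the highest for 44.1%, against which counts of genes lowest or highest on an array are read. Without array 2, 13033 probes and 7993 genes were detected (41.9% of genes). The share of genes was 37.4% without array 1 and 30.1% at a detection p under 0.01 on all 3 arrays. Counts of list members under these settings are read against these shares. The X-linked transcript Xist was detected on array 1 only, at 7.83, 4.32 and 4.22 on arrays 1, 2 and 3, and the Y-linked Eif2s3y on arrays 2 and 3 only, at 4.18, 8.41 and 8.35. Array 3 thus shared the sex-linked pattern of array 2 and the overall profile of array 1, and the labels give no sex. Array 1 was therefore not a repeat of the RNA of arrays 2 or 3, whose own origin these transcripts do not separate. Of the 22 markers that defined lens, 20 had a named probe and 19 were detected, the exception being the connexin Gja3, detected on array 1 only. These 19 markers were detected on each of the 3 arrays.

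Crystallin genes were the brightest of the lens gene lists, and the promoters of 4 of them are shown, where the genes' annotated starts lie. They are Crygs, Crybb2 and Cryaa, the brightest gamma-, beta- and alpha-crystallin, and Crybb1, in which both motifs searched were found. The window of Cryba1, not printed, also held both motifs. Each window runs from 250 bases before to 50 bases after the annotated start, 5′ to 3′ on the gene's strand, in RefSeq's table for GRCm38.p6. Capitals mark TATAAA (a form of the TATA box) and TGCTGAC, searched on both strands as exact strings. TGCTGAC is the core of the site bound by large Maf proteins, transcription factors of fibre differentiation. Other forms of the TATA box were not searched, so the TATATA in the Cryaa window is not marked. The Cryaa window is chr17:31677681-31677980 (plus strand), Crybb1 chr5:112255570-112255869 (plus), Crybb2 chr5:113070068-113070367 (minus) and Crygs chr16:22811361-22811660 (minus).
Cryaa: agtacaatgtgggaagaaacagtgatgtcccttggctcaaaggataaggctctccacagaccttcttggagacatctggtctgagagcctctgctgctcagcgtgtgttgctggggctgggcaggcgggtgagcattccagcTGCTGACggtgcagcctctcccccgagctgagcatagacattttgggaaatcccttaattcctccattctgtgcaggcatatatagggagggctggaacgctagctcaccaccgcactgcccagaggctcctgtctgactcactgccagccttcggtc
Crybb1: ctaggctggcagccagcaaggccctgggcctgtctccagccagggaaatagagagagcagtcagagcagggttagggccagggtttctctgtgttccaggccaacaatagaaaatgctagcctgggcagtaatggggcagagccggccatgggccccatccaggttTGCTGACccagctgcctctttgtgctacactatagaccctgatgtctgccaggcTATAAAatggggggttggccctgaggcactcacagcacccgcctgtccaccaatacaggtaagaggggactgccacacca
Crybb2: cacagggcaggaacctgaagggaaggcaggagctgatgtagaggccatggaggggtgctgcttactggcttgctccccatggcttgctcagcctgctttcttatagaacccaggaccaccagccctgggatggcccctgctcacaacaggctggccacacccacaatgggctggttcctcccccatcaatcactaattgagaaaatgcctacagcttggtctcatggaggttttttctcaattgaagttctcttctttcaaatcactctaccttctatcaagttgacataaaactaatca
Crygs: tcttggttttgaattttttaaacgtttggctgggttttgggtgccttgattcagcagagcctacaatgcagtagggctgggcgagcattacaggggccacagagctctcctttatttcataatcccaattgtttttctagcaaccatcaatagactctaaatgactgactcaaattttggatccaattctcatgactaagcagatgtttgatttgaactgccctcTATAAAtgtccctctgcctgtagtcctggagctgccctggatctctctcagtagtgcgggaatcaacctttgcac

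In the Crybb1 window TATAAA began 30 bases and TGCTGAC 84 bases before the start. TGCTGAC began 108 bases before the start of Cryaa, and TATAAA 25 bases before that of Crygs, while the Crybb2 window held neither. A promoter window was found for 15 of the 16 crystallin genes, all but Cryab. TGCTGAC was present in 5 of the 15 (33.3%), namely Cryaa, Cryba1, Cryba4, Crybb1 and Cryga, against 4.46% of detected genes and 5.28% of all genes with a window. TATAAA was present in 4 of the 15 (26.7%), against 8.92% of detected genes and 15.7% of all genes. On the gene's strand and between 40 and 20 bases before the start, it was present in 3 of the 15 (20%), Cryba1, Crybb1 and Crygs, against 1.47% of detected and 2.41% of all genes. Among 46 ribosomal protein genes with a window, 5 held TATAAA, 0 held it in that position and 0 held TGCTGAC. These are counts of exact letters, with no test, and a match is not evidence of binding. A window without TATAAA was not shown to lack a TATA box, since other forms of it were not searched.

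All 16 crystallin genes on the array were detected, and 12 of them were among the 30 brightest genes. Crygs, a gamma-crystallin made by fibres of the postnatal lens, was the brightest gene, at 15.38, 15.25 and 15.43 on arrays 1, 2 and 3 (15.35 ± 0.09, SD, n = 3). Its raw intensities were 42038, 38650 and 46041, and it held the top signal of array 3. The 6 beta-crystallins, oligomeric relatives of the gamma family, lay close together. Crybb2 was at 15.21, 15.43 and 15.30 (15.31 ± 0.11, rank 3) and was the brightest gene of array 2. The lowest of the 6, Cryba2, was at 14.86, 15.16 and 15.16 (15.06 ± 0.18, rank 14). The array 1 value of Cryba2 lay below the other two arrays.

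Cryaa, the lens-restricted alpha-crystallin chaperone, was at 14.82, 14.81 and 14.99 (14.88 ± 0.10, rank 17), and Cryab, the alpha-crystallin that other tissues also express, was at 13.66, 13.92 and 13.73 (13.77 ± 0.13, rank 58). The gamma-crystallins spread the most. Crygd, Crygc, Cryga and Crygb had means of 15.27, 15.22, 15.17 and 14.95, at ranks 4, 5, 9 and 16. Crygn, Cryge and Crygf were dimmer, at 13.93 ± 0.13, 13.36 ± 0.44 and 12.82 ± 0.47. Cryge was at 13.32, 13.81 and 12.94 and Crygf at 12.52, 13.37 and 12.57, so both were highest on array 2. Cryga to Cryge lie side by side on chromosome 1 and Crygf is farther along it, and the coding sequences of this family are closely alike. Whether a probe also binds a paralog was not tested, since probe sequences were not used here.

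The order at the very top could not be resolved. The 16 brightest genes lay within 0.40 on the log2 scale, and in all 29 pairs of neighbours among the 30 brightest genes the difference between means was smaller than the larger of their SDs. Of the 6951 detected genes, 23 had a raw intensity above 50% of the brightest signal on every array, 12 crystallins among them. Saturation was not tested, so a small spread near the top does not show equal levels.

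Among fibre cell genes, Mip, the water channel of fibre membranes also called aquaporin 0, ranked next to Crygs, at 15.25, 15.38 and 15.34 (15.32 ± 0.07, rank 2). Lim2, a membrane protein of fibre junctions, was at 14.90, 14.86 and 14.78 (14.85 ± 0.06, rank 19), and Bfsp2, a subunit of the beaded filament, at 14.23, 14.30 and 14.03 (14.19 ± 0.14, rank 38). The 3 arrays differed little for each of these genes. Fabp5, a fatty acid binding protein, followed at 13.69 ± 0.14. In all, 22 of 25 fibre membrane and cytoskeleton genes were detected (88%), from Mip down to the cadherin Cdh2 at 5.29 ± 0.35. The 3 without detection on all arrays were Gja3, Cap2 and Slc2a3. Dnase2b, the acid nuclease that degrades fibre DNA, was at 10.49, 11.55 and 10.50, highest on array 2.

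Grifin, a galectin-related protein of lens fibres, and Lgsn (lengsin), a fibre protein related to glutamine synthetase, were at 14.79 ± 0.15 (rank 20) and 14.38 ± 0.09 (rank 31). Of 9 crystallin relatives, 4 were detected (44.4%), the others being the quinone oxidoreductase Cryz at 7.06 ± 0.16 and its relative Cryzl1 at 9.48 ± 0.10. Crym, Cryl1 and Crybg1 were detected on 0 arrays.

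**Figure D1:**
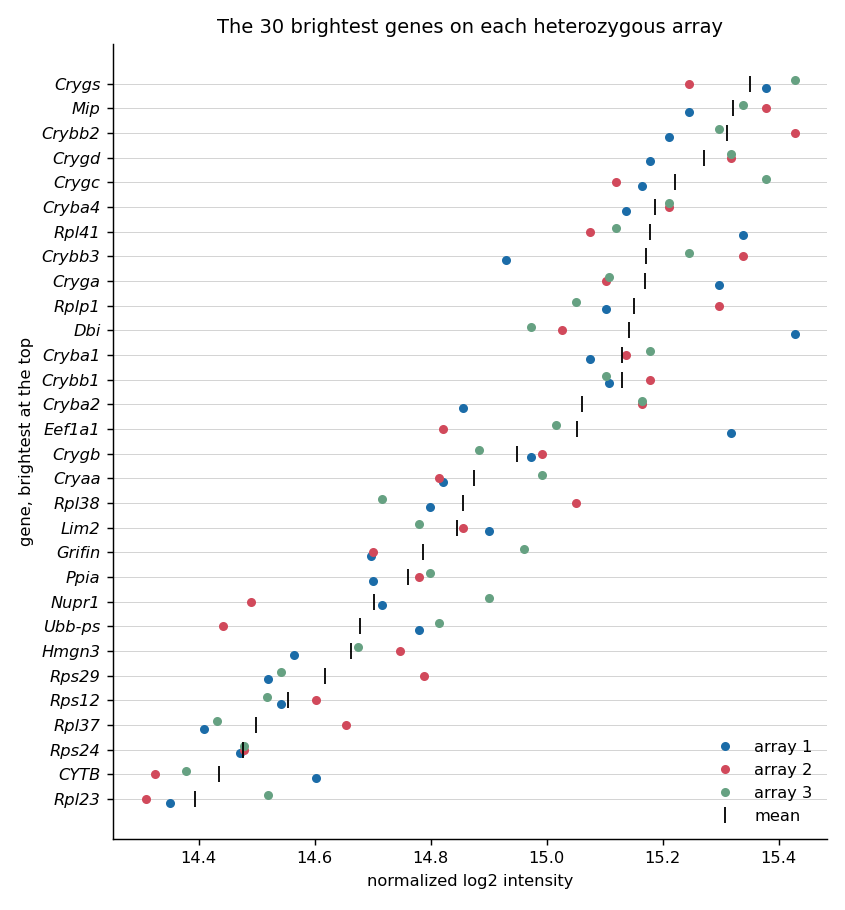
Normalized log2 intensity (horizontal axis) of the 30 brightest genes (vertical axis, brightest at the top) on each of the 3 heterozygous arrays, with a point per array and a bar at the mean. The horizontal axis starts above 0; points of neighbouring genes overlap throughout, from Crygs at a mean of 15.35 to Rpl23 at 14.39.

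Many of the other bright genes serve protein synthesis. Listed ribosomal protein genes held 8 of the 30 and 30 of the 100 brightest places, and 50 of 56 were detected (89.3%). Rpl41 was at 15.34, 15.07 and 15.12 (15.18 ± 0.14, rank 7), Rplp1 at 15.10, 15.30 and 15.05 (15.15 ± 0.13, rank 10), and Rpl38 and Rps29 had means of 14.86 and 14.62. Rpl41 was highest on array 1 and Rplp1 on array 2. Eef1a1, the elongation factor that brings aminoacyl-tRNA to the ribosome, was at 15.32, 14.82 and 15.02 (15.05 ± 0.25, rank 15), lowest on array 2. Ribosomal protein genes have many processed pseudogenes, and their other probes often disagreed. The 4 Rps24 probes had means of 14.48, 6.76, 5.32 and 4.28.

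Of the 30 brightest genes, 6 were in none of the gene lists. Dbi, the acyl-CoA and diazepam binding protein, was the brightest gene of array 1 and was at 15.43, 15.03 and 14.97 (15.14 ± 0.25). Ppia (cyclophilin A, a prolyl isomerase) had a mean of 14.76, Nupr1 (a small stress-induced nuclear protein) 14.70, the ubiquitin pseudogene Ubb-ps 14.68, Hmgn3 (a nucleosome-binding protein) 14.66 and mitochondrial CYTB 14.44. Nupr1 and Ubb-ps were lowest on array 2, at 14.49 and 14.44. A processed pseudogene such as Ubb-ps can share its probe with the parent gene, which was not tested. Next in brightness among unlisted genes came Tuba1b at 14.36, Fth1 (ferritin heavy chain) at 14.35, Mgarp at 14.22 and Ndufa13 at 13.93. Across the 100 brightest genes, 15 were crystallins, 5 were on the fibre membrane and cytoskeleton list, 3 on the oxidative phosphorylation list and 34 on no list. The lists are not complete, so these counts are of listed genes. The 34 include the respiratory chain or ATP synthase genes CYTB, Ndufa13, Atp5l, Atp5j2, Uqcrh and ND4, and the ribosomal protein gene Rpl36al.

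Tdrd7 itself was among the brightest genes, at 14.02, 13.73 and 14.15 (13.96 ± 0.22, rank 44), with raw intensities of 20073, 11414 and 15857. It was well above background on each array, and lowest on array 2. The position of the probe in the transcript was not analysed here, so the value cannot be split between the intact and the mutant allele. Of 31 Tudor domain and RNA granule genes, 20 were detected (64.5%). After Tdrd7 the brightest were the stress granule components G3bp2 at 9.87 ± 0.29 and Caprin1 at 9.58 ± 0.36, and Tdrkh, a Tudor and KH domain protein of the piRNA pathway, at 9.15 ± 0.40. Tdrd1, Tdrd5 and Tdrd9, Tudor proteins known from the male germ line, were detected on 0 arrays, and Tdrd6 on 1. The list's mean deviations from the mean of the 3 arrays were −0.02, −0.01 and 0.03 on arrays 1, 2 and 3.

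**Figure D2:**
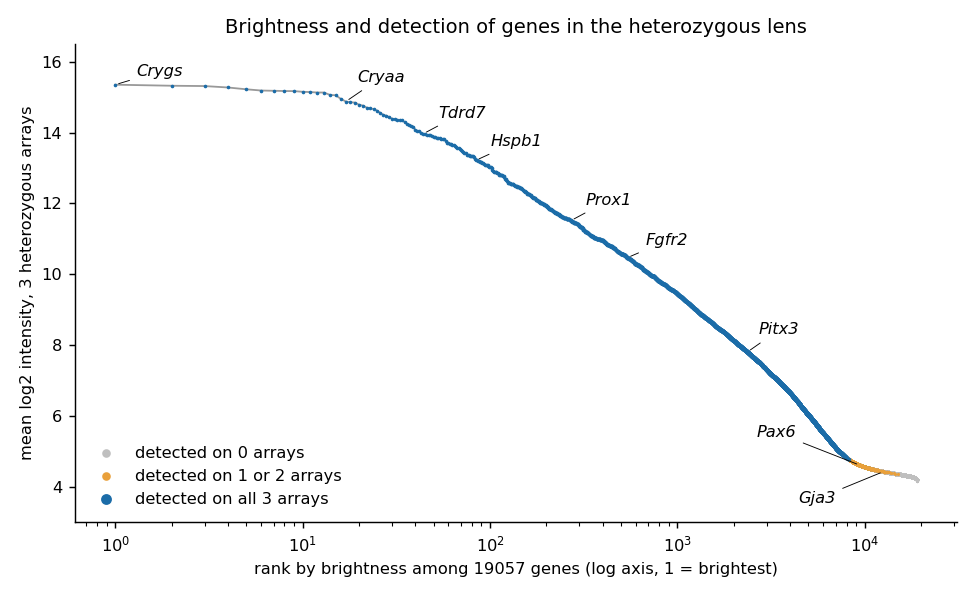
Mean log2 intensity over the 3 heterozygous arrays (vertical axis) against the rank by brightness of 19057 genes (horizontal log axis, 1 is the brightest), coloured by how many arrays detected the gene. Crygs is at 15.35 and Tdrd7 at 13.96, and the 6951 genes detected on all 3 arrays form the upper stretch of the curve.

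The signal was concentrated in few probes. On arrays 1, 2 and 3 the 100 brightest probes held 28.7%, 37.9% and 33.1% of the background-corrected signal (33.2 ± 4.58%, SD, n = 3), and the 1000 brightest held 71.7%, 80.0% and 75.1%. Array 2 had the highest share for both. Probes of the 16 crystallin genes, 21 in number, held 6.39%, 9.52% and 8.50% (8.14 ± 1.60%). The 85 ribosomal protein probes held 7.99%, 10.6% and 8.58% (9.07 ± 1.39%). Without any background correction the share of the 100 brightest was 24.4%, so these shares depend on the correction. They are shares of fluorescence and not of RNA molecules.

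Transcription factors of the lens were detected at middle brightness, 16 of 29 (55.2%). Prox1, a homeodomain factor of fibre elongation, was at 11.27, 11.36 and 11.90 (11.51 ± 0.34, rank 270), and Hsf4, the heat shock factor of fibre cells, at 10.73, 12.19 and 10.40 (11.11 ± 0.95). Hsf4 was highest on array 2 by more than 1 on the log2 scale. Meis2 was at 8.84 ± 0.19, and Hey1 at 9.36, 7.91 and 8.97. Maf, the large Maf protein that activates crystallin genes, was at 6.91, 8.03 and 6.77, and Pitx3, a homeodomain factor needed for lens development, at 7.49, 8.54 and 7.37, both highest on array 2. Pax6 and Foxe3, both defining factors of the lens epithelium, were dim. Pax6 was detected on array 1 only, at 4.99, 4.25 and 4.57, and Foxe3 on arrays 1 and 3, at 4.85, 4.29 and 4.80. A probe not above background does not show that its gene is silent. Without array 2, 22 of the 29 were detected, against 41.9% of all genes.

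Of 45 genes known from congenital cataract, 37 were detected (82.2%), and the brightest were crystallins, Mip, Lim2 and Bfsp2, followed by Tdrd7. Further down were Ftl1 (ferritin light chain) at 13.33 ± 0.32 and Vim (vimentin) at 11.83 ± 0.11. Chmp4b, a subunit of the membrane-cutting ESCRT machinery, was at 8.72, 9.56 and 9.20, and Epha2, a receptor tyrosine kinase of lens cells, at 6.31, 7.05 and 6.42. The 8 that were not detected on all arrays were Gja3, Foxe3, Pax6, Agk, Nhs, Eya1, Slc16a12 and Unc45b.

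Genes linked to organelle loss and denucleation were detected in 17 of 21 cases (81%). The brightest was Cdkn1c, the cyclin-dependent kinase inhibitor p57 that fibre cells switch on as they leave the cell cycle, at 12.97, 12.44 and 13.16 (12.86 ± 0.37). Bnip3l (Nix), a receptor for the removal of mitochondria, was at 11.79, 11.24 and 11.65 (11.56 ± 0.28). Both were lowest on array 2. Dnase2b and Hsf4, given above, were the next. The proteasome subunits Psmb4, Psmd4, Psmc2 and Psma2 led 21 detected of 26 ubiquitin and proteasome genes (80.8%), with means of 12.58, 12.33, 11.97 and 11.76. In autophagy and lysosomal genes 19 of 23 were detected (82.6%), led by Gabarap at 11.44 ± 0.36, which marks autophagosomes, and by the cathepsin Ctsb at 10.79, 9.45 and 10.65.

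Chaperones were detected in 23 of 28 cases (82.1%). Hspb1, a small heat shock protein of the alpha-crystallin family, was at 13.20, 13.09 and 13.36 (13.21 ± 0.13, rank 84), although its other probe was detected on 0 arrays. The constitutive Hspa8 was at 13.04 ± 0.25, Dnajb1 at 12.54 ± 0.18 and the chaperonin subunit Tcp1 at 11.90 ± 0.15, while stress-inducible Hspa1a and Hspa1b were detected on 0 arrays. Antioxidant genes were detected in 23 of 29 cases (79.3%), with Gstp1 (a glutathione transferase) at 13.08 ± 0.36, Prdx1 (a peroxiredoxin) at 13.07 ± 0.21, Hmox1 (heme oxygenase) at 12.77 ± 0.33 and Gpx1 (glutathione peroxidase) at 12.52 ± 0.19.

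Energy metabolism was represented by both of its branches. Of 29 oxidative phosphorylation genes, 25 were detected (86.2%), led by Atp5b of the ATP synthase at 14.04 ± 0.31. Ndufa1 and Ndufb8 of complex I were at 13.86 and 12.87, Ndufa4 of cytochrome c oxidase at 13.14, and the remainder down to Sdhd at 5.84. Of 18 glycolysis and lactate genes, 14 were detected (77.8%). Gapdh was at 13.28, 13.19 and 13.18 (13.21 ± 0.05), Aldoc at 13.31, 12.79 and 12.89, Pkm at 11.56 ± 0.17 and Tpi1 at 11.84, 10.61 and 11.99. The glycolysis list deviated by 0.31, −0.46 and 0.16 on arrays 1, 2 and 3, with 10 of the 14 lowest on array 2. Ldha, lactate dehydrogenase A, was at 11.18, 9.15 and 10.18. All 15 cholesterol synthesis genes were detected, led by Fdps at 10.16 ± 0.18, Sqle at 8.63 ± 0.28 and Dhcr7 at 7.69, 9.11 and 7.34, and 12 of the 15 were highest on array 2, against 44.1% of all detected genes.

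Over all members on the array, whether detected or not, the median percentile of brightness was 99.8 for alpha-, 99.95 for beta- and 99.94 for gamma-crystallins and 99.6 for ribosomal proteins, where the median of all genes is 50. It was 95.6 for fibre membrane and cytoskeleton genes, 97.3 for ubiquitin and proteasome genes, 96.9 for oxidative phosphorylation and 95.2 for chaperones. Epithelium genes had a median of 89.1, the capsule 82.8, growth factor signalling 77.1, transport 74.6 and lens transcription factors 69.3. Of the 34 lists without the sex-linked transcripts, 25 had a larger share detected than all genes. Genes on such lists are well studied, and their probes were not matched for design, so nothing particular to a list is read from these medians.

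Among lists with 8 or more detected members, the lens epithelium list differed most between the arrays. Of 23 genes, 16 were detected (69.6%), and Dkk3, a secreted Dickkopf family protein, led at 13.81, 13.02 and 13.85 (13.56 ± 0.47). Sfrp1, a secreted Wnt antagonist, was at 12.82, 13.10 and 12.63, Wnt7b at 11.86, 10.69 and 12.02, and the glucose transporter Slc2a1 at 12.42, 9.40 and 11.94. Array 2 was lowest for 13 of the 16, and Sfrp1 and Wnt7a were the 2 that were highest on it. The mean deviations of the 16 genes from the mean of the 3 arrays were 0.73, −1.22 and 0.50. Over all 6951 detected genes they were −0.01, −0.01 and 0.01, and array 2 was lowest for 2842 (40.9%). With other normalizations the array 2 value of this list ran from −0.92 to −1.66.

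Gja1 (connexin 43), the gap junction protein of epithelial cells, was at 11.53, 6.52 and 11.18, with raw intensities of 4016, 102 and 2194. The epithelial membrane glycoprotein Pdpn was at 10.89, 6.64 and 10.51, the water channel Aqp1 at 10.67, 6.51 and 10.52, the growth factor binding protein Igfbp5 at 10.08, 6.18 and 10.35, and the epithelial cadherin Cdh1 at 8.63, 5.57 and 8.15. In each of the 5 genes arrays 1 and 3 were close together and array 2 was more than 2 lower on the log2 scale. In RNA of a whole lens, fewer epithelial cells and less RNA per epithelial cell cannot be told apart, and the part of array 2's profile in these values was not tested. The 22 fibre cell genes had mean deviations of −0.04, 0.09 and −0.05, and 15 of them were highest and 6 lowest on array 2.

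**Figure D3:**
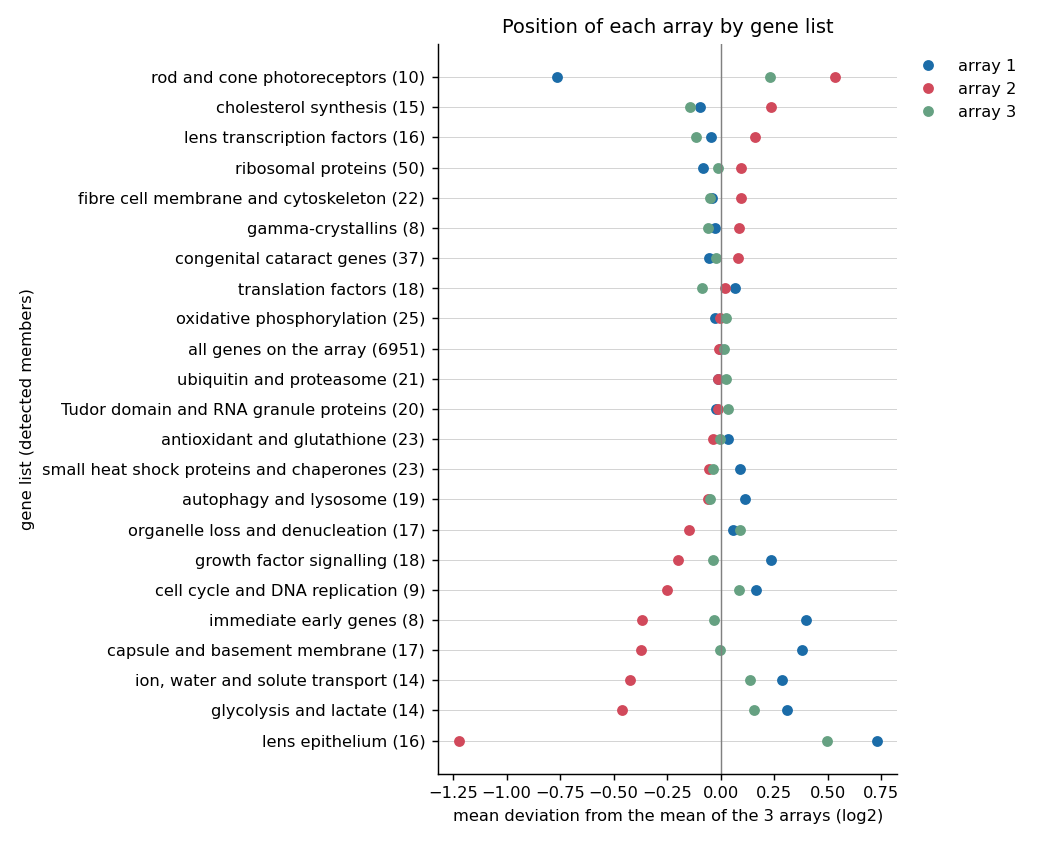
Mean deviation, in log2 units, of the detected members of each gene list on arrays 1, 2 and 3 from the mean of the 3 arrays (horizontal axis), with the number of detected members in brackets (vertical axis). Lists with 8 or more detected members are drawn; the lens epithelium is at −1.22 on array 2, and photoreceptor genes are at −0.76 on array 1.

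By count, most capsule genes were also lowest on array 2, while transport genes were split. The mean deviations on array 2 were −0.42 for the detected transport genes and −0.37 for the detected capsule genes. The transport mean includes Aqp1, which is also on the lens epithelium list, at 10.67, 6.51 and 10.52, and Atp1b3, given below. It therefore does not describe most transport genes, and the 2 means are not read as a shared pattern. Of 25 ion, water and solute transport genes, 14 were detected (56%), of which 7 were lowest and 7 highest on array 2, near the shares of all detected genes, and led by Mip and by Atp1b3, a sodium pump subunit, at 12.71, 10.07 and 12.27. The taurine transporter Slc6a6 was at 10.80, 9.89 and 10.07, and the water channel Aqp5 at 10.12, 10.41 and 10.04, so Aqp5 did not share the low value. Of 26 capsule and basement membrane genes, 17 were detected (65.4%), and 12 of the 17 were lowest on array 2. Col4a1 and Col4a2, the main chains of the collagen IV network, were at 13.12, 11.90 and 12.43 (12.48 ± 0.61) and at 11.74 ± 0.75, the latter with raw intensities of 7325, 1535 and 3139. Sparc, a collagen-binding matrix protein, was at 11.73, 11.62 and 11.54, and Timp3, a metalloproteinase inhibitor, at 9.94, 10.40 and 9.96.

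Growth factor signalling genes were detected in 18 of 27 cases (66.7%). Ctnnb1 (beta-catenin) was at 11.62 ± 0.37, the fibroblast growth factor receptor Fgfr2 at 10.63, 10.16 and 10.60 (10.47 ± 0.26), the ephrin Efna5 at 9.22 ± 0.55 and the receptor Bmpr2 at 8.56 ± 0.18. Fgfr3 was at 7.25 ± 0.48, and Fgfr1 was detected on 2 of 3 arrays. Of 24 cell cycle genes 9 were detected (37.5%), close to the share of all genes, led by the cyclins Ccnd1 at 10.17, 9.17 and 9.86 and Ccnd3 at 9.59 ± 0.06. Without array 2, 15 of the 24 were detected, against 41.9% of all genes. Of 21 immediate early genes 8 were detected (38.1%), led by Dusp1, a MAP kinase phosphatase, at 9.57 ± 0.45. A detection p under 0.01 left 5 of the 21, against 30.1% of all genes. Interferon response and MHC class I genes were detected in 2 of 21 cases (9.52%), B2m at 7.03 ± 0.20 and Tapbp at 6.44 ± 0.24. Leaving out array 2 gave 9 of the 21, against 41.9% of all genes.

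**Figure D4:**
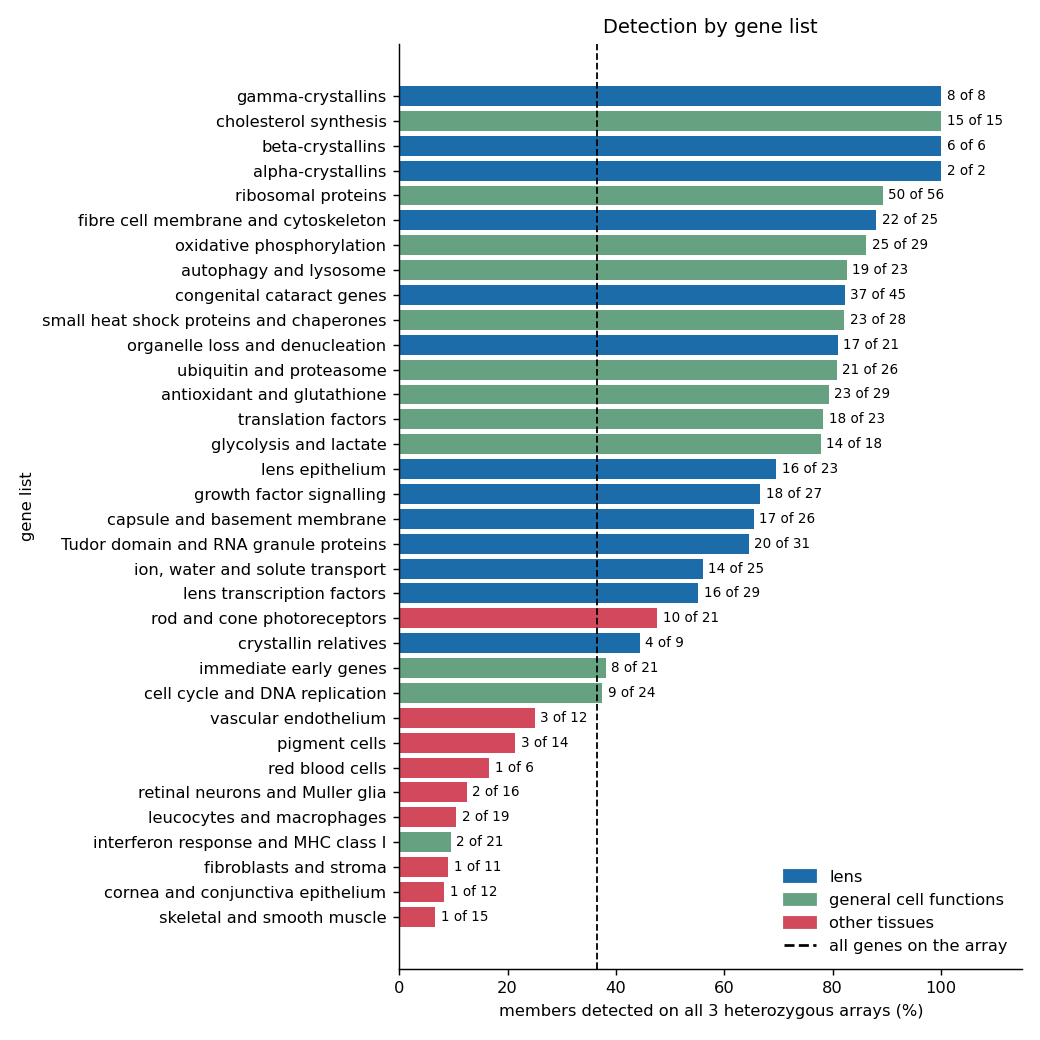
Percent of the members of each gene list that were detected on all 3 heterozygous arrays (horizontal axis, bars from 0), with the counts beside the bars and a dashed line at the 36.5% of all genes. The crystallin and cholesterol synthesis lists are at 100%, and 8 of the 9 lists of other tissues lie below the line, the exception being photoreceptors with 10 of 21.

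Markers of other tissues near the lens were mostly not detected. Photoreceptors were the exception, with 10 of 21 genes detected (47.6%) at low brightness. Without array 1, 15 of the 21 were detected, against 37.4% of all genes. The rod transducin Gnat1 was at 6.61, 9.06 and 8.90, the retinal transporter Abca4 at 7.55, 7.34 and 7.65, the arrestin Sag at 5.48, 6.84 and 7.16 and the cone opsin Opn1mw at 5.75, 7.20 and 6.31. Array 1 was lowest for 9 of the 10, against 32.6% of all detected genes, and the list deviated by −0.76, 0.53 and 0.23. The summed raw intensity of all 21 was 1860, 2181 and 2450 on arrays 1, 2 and 3. Such a sum includes the background of each probe. The median raw intensity of all probes was 60.5, 60.8 and 67.7, highest on array 3, so the order of the arrays is not read from raw sums. Gnat2, Gngt1, Rp1 and Opn1sw were detected on 0 arrays. Whether retinal RNA was carried over was not tested.

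Of 14 pigment cell genes 3 were detected, Ttr (transthyretin) at 4.86, 8.85 and 7.56, Dct at 4.91, 7.21 and 5.46 and Tyrp1 at 5.38, 5.81 and 4.94, and 6 were detected without array 2. Ttr and Dct were lowest on array 1, as the photoreceptor genes were. The summed raw intensity of the pigment list, background included, was 1121, 1248 and 1201, and Tyr, Mlana, Rpe65 and Best1 were detected on 0 arrays. Retinal neuron and glia genes were detected in 2 of 16 cases, Prkca at 7.88 ± 0.20 and Pou4f1 at 6.51, 5.63 and 4.91, in 5 without array 2 and in 1 at a detection p under 0.01. Red blood cell genes were detected in 1 of 6, Slc4a1 at 7.39 ± 0.69, and in 4 without array 1. The alpha-globin Hba-a1 was at 4.50, 6.89 and 7.96, so array 1 was again the lowest.

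Leucocyte and macrophage genes were detected in 2 of 19 cases, Csf1r at 5.15 ± 0.31 and Aif1 at 5.10 ± 0.45, while Ptprc, Lyz2, C1qa and Cd74 were detected on 0 arrays. At a detection p under 0.01, 0 of the leucocyte genes and 0 of the corneal genes were detected, against 30.1% of all genes. Vascular endothelium gave 3 of 12, Egfl7 at 7.99 ± 0.31, Tek at 5.49 ± 0.37 and Kdr at 5.15 ± 0.36, with Pecam1 and Cdh5 on 0 arrays. Fibroblast genes gave 1 of 11, the receptor Pdgfrb at 5.74 ± 0.22, and 2 without array 2, with Col1a1 on 0 arrays. Muscle genes gave 1 of 15, smooth muscle actin Acta2 at 13.82 ± 0.25 (rank 56, raw intensities 18885, 10369 and 14643), and 2 without array 2. Actin genes are closely alike, and the 6 Acta2 probes ranged from not detected to this value. Besides the brightest, those detected on all 3 arrays had means of 12.11, 9.85 and 8.68. The other smooth muscle genes Myh11, Tagln and Cnn1 were detected on 0 arrays. Corneal genes gave 1 of 12, Aldh3a1, an aldehyde dehydrogenase known from the cornea, and 3 without array 2, with Krt12 and Krt5 on 0 arrays.

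After quantile normalization, which gives the arrays 1 common distribution, the spread between arrays was small for most genes. The median SD of the detected genes was 0.28 on the log2 scale, and the 90th percentile was 0.59. Among the 3475 detected genes brighter than the median, 502 had a range over 1 between the arrays (14.4%) and 67 a range over 2. Array 2 was the lowest array for 326 of the 502 and the highest for 165. The count of genes with a range over 1 depends on the normalization. It was 2136 of 3471 when arrays were scaled to one median, so most genes then had a range over 1.

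The 15 genes of widest range were mostly low on array 2. Aldh3a1 was at 10.45, 5.05 and 9.92, with raw intensities of 2005, 70.1 and 929. Folr1, a folate receptor, was at 10.15, 5.03 and 9.56, and Spon2, a secreted matrix protein, at 11.75, 7.64 and 11.89. After these and Gja1, Pdpn, Igfbp5 and Aqp1 came Olfml3, the thrombin receptor F2r, the membrane carbonic anhydrase Car14, the annexin Anxa1, the scavenger receptor Scarf2 and the glutathione transferase Gstm2, all lowest on array 2. Gstm2, for example, was at 10.65, 7.37 and 10.49. The 2 exceptions were Ttr, lowest on array 1, and Lims2, a focal adhesion adaptor, at 9.53, 8.68 and 5.44. Of these 15 genes, Gja1, Pdpn, Igfbp5 and Aqp1 were on the lens epithelium list, and Aldh3a1 was on the corneal list. The 15 were picked by their range in these same values, so this overlap is not separate evidence on either list.

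**Figure D5:**
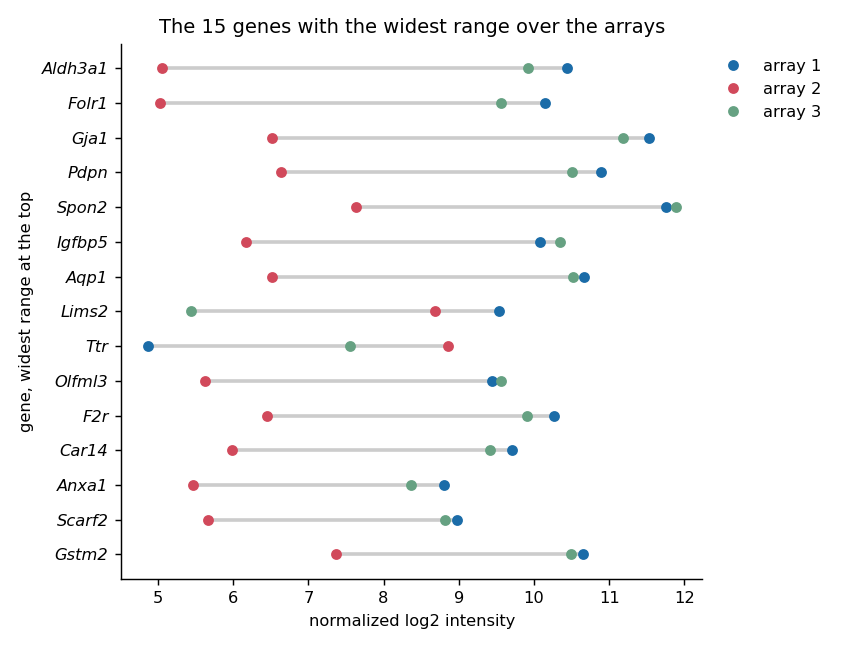
Normalized log2 intensity (horizontal axis) on each of the 3 heterozygous arrays for the 15 genes of widest range among detected genes above the median brightness (vertical axis, widest at the top), with a point per array joined by a line. In 13 genes the array 2 point is lowest, and arrays 1 and 3 lie close together; Lims2 is lowest on array 3 and Ttr on array 1.

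At the threshold of detection the values were near background. The probes just inside it, with a highest detection p of 0.0491 over the arrays, were of Rsph9, Chmp4c, Fam149b, Apcs and a second probe of Fyco1, with means from 4.78 to 5.21. Those just outside were of Khdrbs2, Glud1, Map6 and Sema5a and 1 unnamed probe, with a highest p of 0.0502 to 0.0513 and means from 4.81 to 5.08. By gene type, 6859 of 18400 protein-coding genes were detected (37.3%), and 54 of 453 long non-coding RNAs (11.9%).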

How the data were processed

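Lens RNA was purified with a Qiagen RNeasy kit, per the labels' protocols, then treated with DNase, checked on an Agilent Bioanalyzer and made into biotinylated cRNA with the Illumina TotalPrep kit. The deposited raw table holds 1 linear intensity per probe and array, taken as neither background-subtracted nor normalized, since no value is below 37.5. The column to the right of an array's intensities is its detection p-value, per the file headers, in steps of 1 over 936. Which software summarised the beads is not given in the sources used here. Raw columns name the group and not the replicate number, so arrays are numbered by column order. The authors' deposited series matrix was an alternative. It holds linear intensities with medians of 65.4, 66.2 and 64.8 for replicates 1, 2 and 3. Replicates 1, 2 and 3 follow arrays 1, 2 and 3, in that order, along a straight line (rank correlation 1). Rank correlations of the other pairs ran from 0.761 to 0.807, so the array numbers match the replicate numbers. How it was rescaled or centred is unknown here.

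Intensities of the 3 heterozygous arrays were processed with neqc (limma 3.58.1, R 4.3.3), which applied normexp background correction with an offset of 16, using controls inferred from the detection p-values, then quantile normalization and log2. The same processing was also run on simulated arrays, which had no differences in probe affinity and no saturation. That run could not test the ranks given here. Shares of signal used normexp without offset or quantile step. The offset pulls dim values together. Symbols came from the platform annotation, in which 34885 probes have 1 gene, 18 several and 10378 none, and 720 of 812 list entries matched. Genes without a named probe were not analysed here. The members and lists were chosen with earlier results of these data known. The naming rule took the 30 brightest genes, up to 4 brightest detected members per list, Tdrd7, the 15 widest ranges, 5 probes on each side of the threshold and up to 10 unlisted genes. Other genes named, such as undetected markers, were chosen after their values were seen. With 3 samples of 1 group there is no contrast and no test between groups was made, and the number of arrays limits the precision. Alternatives were the detection rule, background correction, normalization, source of values, probe per gene and leaving out each array.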

Additional observations from a re-analysis of the deposited data

How the results depend on the processing

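The 11120 detected probes became 8927 at a detection p under 0.01, 13853 with detection on at least 2 arrays and 17525 with detection on at least 1, and 11400 to 13033 without 1 array. The 30 brightest genes all stayed among the 30 brightest without background correction, with arrays scaled to one median, on the series matrix values and when all 6 arrays were normalized together. With the median over a gene's probes 24 of the 30 stayed, and 28 to 29 did without 1 array. The share of signal in the 100 brightest probes, 33.2%, was 30.1% with the lowest intensity subtracted, 24.4% without background correction and 30.9% to 35.5% without 1 array. Detection exceeded the share of all genes in 25 of 34 lists, and in 23 to 28 under the alternatives (24 to 27 without 1 array). The epithelium deviation on array 2, −1.22, ran from −0.92 (series matrix) to −1.66 (median scaling). The count of 502 genes with a range over 1 was 344 without background correction, 546 on the series matrix, 2136 with median scaling and 796 with detection on at least 1 array. Members detected per list moved by over 1.5 times in 32 of 204 cases, and median percentiles by more than their spread in 38 of 272, 21 of them with the median over probes. The causes were not tested. No paired analysis was possible because only 1 group was described and no test was made. The number of arrays and probe affinity limit these ranks, and saturation near the ceiling was not tested.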
